A study of Mus musculus with 22 samples.

Results

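Cd4 was examined in RNA sequencing of a murine chronic lymphocytic leukemia (CLL) line in which Nfkbie, the gene of the NF-κB inhibitor IκBε, had been disrupted. Its reads were taken from the transcripts that the GENCODE annotation assigns to Cd4, of which 5 of 7 are among the 62492 transcripts of the deposited table, and were summed as 1 of 17023 genes. The gene was chosen by its measured level, which was higher in NFKBIE-ko than in NFKBIE-wt samples of these data. Its levels and its fold between the genotypes are therefore given as a description, with no test.

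CD4 is a single-pass membrane protein of the immunoglobulin superfamily. On helper and regulatory T cells it acts as a coreceptor of the T-cell receptor: it binds MHC class II molecules on the opposite cell and brings the kinase LCK to the receptor. In mice, CD4 is also present on developing thymocytes and on a subset of splenic dendritic cells, whereas mature B cells are not counted among its usual sources. Its transcription in T-cell development is governed by ThPOK (Zbtb7b) and by Runx factors, which act through enhancer and silencer elements of the Cd4 locus.

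The 22 samples came from TCL1-355-TKO cells, a line established from the Eμ-TCL1 mouse, in which TCL1 is driven in B cells, and which carries biallelic lesions of Cdkn2a and Cdkn2b, among others, in both genotypes. NFKBIE-ko cells had been electroporated with Cas9 and a cr-RNA against Nfkbie, and NFKBIE-wt cells were mock controls. The genotypes were kept apart during a first passage of 21 days in 2 C57BL/6 mice, with the number per genotype not given, then injected intraperitoneally into C57BL/6 recipients aged 2 to 3 months (5 per group), and after 10 days 4 samples per genotype were taken from the spleen and 4 from the peritoneal cavity (PC). Cells from spleens of 3 mice were instead cultured for 2 weeks (in vitro, 3 samples per genotype). The genotypes and the separately propagated populations cannot be told apart. The spleen and PC samples were not purified and hold immune cells of the host, so that in them a change in the number of a cell type and a change in RNA per cell cannot be told apart. The depth was even, with 24036763 to 26581304 estimated counts per sample. Levels are in CPM, the counts of a gene relative to the library total scaled by TMM. Adjusted p-values (padj) are Benjamini-Hochberg values of quasi-likelihood tests in edgeR, over all genes tested.

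The target of the cr-RNA is shown because it defines the knockout. It lay in coding exon 2 of the 6 exons of Nfkbie, on the forward strand of GRCm39 at chr17:45869436-45869455, and had 1 exact match in the genome. The capitals mark the PAM that follows the target.
cr-RNA target: agtgattcacgaagccccgtCGG

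The transcript level of Nfkbie did not separate the genotypes in every compartment. In the PC it was 64.7, 46.8, 56.3 and 47.7 CPM in the NFKBIE-ko samples and 67.4, 81.4, 77.0 and 92.1 CPM in the NFKBIE-wt samples, without overlap, a log2 fold change of -0.56 (padj 0.00376). In vitro the level was 54.8, 58.6 and 47.2 CPM against 113, 138 and 53.4 CPM (log2 fold change -0.93, padj 0.517), and in the spleen 120.1, 54.4, 109 and 112 CPM against 72.3, 70.9, 75.5 and 122 CPM (log2 fold change 0.20, padj 0.715). Without the libraries that went against their labels, described next, the log2 fold change was -1.23 in vitro (padj 0.0925), with no overlap, and 0.43 in the spleen (padj 0.294). An indel need not lower the level of a transcript, so these values do not check the editing itself.

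A pair of NFKBIE-wt libraries went against their labels. The spleen library labelled NFKBIE-wt replicate 4 had a mean correlation across 11546 genes of 0.98 with the NFKBIE-ko cultures and 0.964 with the NFKBIE-wt cultures, against 0.935 with the other NFKBIE-wt spleens. It held 0 counts of C1qa, a macrophage gene, and of Trbc1, and 1 count of the T-cell gene Thy1, whereas the other 3 NFKBIE-wt spleens had 80 to 160, 20 to 53 and 40 to 56 counts of these genes. The cultured library labelled NFKBIE-wt replicate 3 was closest to the NFKBIE-wt spleens (0.968, against 0.921 with the other NFKBIE-wt cultures) and held 169 counts of C1qa, 43 of Trbc1 and 91 of Thy1. NFKBIE-wt in vitro replicate 1 had 80 counts of Thy1, 18 of Trbc2 and 2 of C1qa, and replicate 2 was free of all 3. Whether the 2 libraries were exchanged was not tested. The groups were kept as labelled, and the values of Cd4 that rest on the pair are given with and without it.

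Cd4 (ENSMUSG00000023274) lies on the reverse strand of chromosome 6 of GRCm39, from 124841655 to 124874758, and no other annotated gene overlaps it. In the spleen, Cd4 was at 131, 162, 110.1 and 114 CPM in the NFKBIE-ko samples and at 7.32, 3.64, 4.87 and 24.0 CPM in the NFKBIE-wt samples. The highest NFKBIE-wt value was that of the library labelled replicate 4. In the PC it was at 159, 144, 131 and 129.6 CPM against 10.4, 15.8, 10.1 and 10.1 CPM. In vitro it was at 108, 79.1 and 102 CPM against 11.4, 8.04 and 5.08 CPM, the lowest of which came from the library labelled replicate 3. Every NFKBIE-ko sample lay above every NFKBIE-wt sample in each compartment. The lowest NFKBIE-ko sample was 4.58 times the highest NFKBIE-wt sample for spleens, 8.19 times for PC samples and 6.93 times for cultures. For spleens it was 15.0 times without the library labelled replicate 4. Of all genes tested, the share with every NFKBIE-ko sample above every NFKBIE-wt sample was 8.71% for the spleen, 21.8% for the PC and 10.1% for the cultures, and nothing is read from Cd4 being among them.

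**Figure D1:**
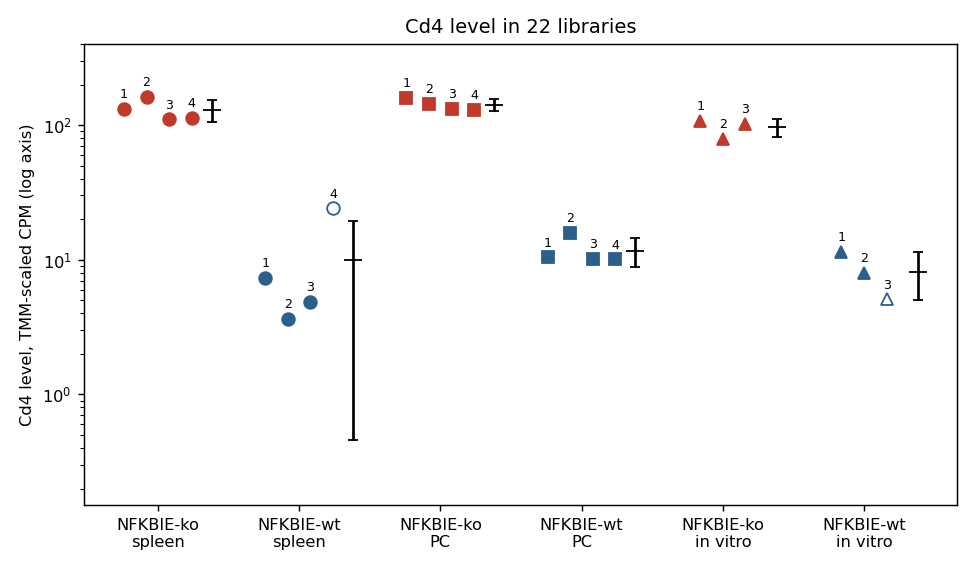
Cd4 level (TMM-scaled CPM, log axis) in each of the 22 libraries, by group. Numbers are replicate numbers, open symbols are the 2 libraries that went against their labels, and black bars are the mean and SD of the group. The NFKBIE-ko libraries sit between 79.1 and 162 CPM, and the NFKBIE-wt libraries between 3.64 and 24.0 CPM.

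The mean of the NFKBIE-ko spleens was 129 ± 23.8 CPM (SD, n = 4) against 9.97 ± 9.51 CPM (SD, n = 4), which gave 3.68 as log2 fold change (standard error 0.57). In the PC the means were 141 ± 13.9 and 11.6 ± 2.81 CPM (SD, n = 4 each), which gave 3.60 as log2 fold change (standard error 0.15). In vitro they were 96.2 ± 15.1 and 8.18 ± 3.17 CPM (SD, n = 3 each), with 3.55 as log2 fold change (standard error 0.31). Without the library labelled replicate 4 the NFKBIE-wt spleens averaged 5.28 ± 1.87 CPM (SD, n = 3) and the log2 fold change was 4.60. Without the library labelled replicate 3 the NFKBIE-wt cultures averaged 9.73 CPM and the log2 fold change was 3.30. With NFKBIE-wt in vitro replicate 2 as the only NFKBIE-wt culture it was 3.58. Ordered by log2 fold change, Cd4 stood at place 22 of 12221 genes in the spleen, 74 of 12640 in the PC and 8 of 11722 in vitro.

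Per kilobase of transcript, Cd4 averaged 42.7 CPM in the NFKBIE-ko spleens, 47.3 in the NFKBIE-ko PC and 32.1 in the NFKBIE-ko cultures. This placed it at rank 2055, 1695 and 2566 of the 17023 genes. In the NFKBIE-wt groups it averaged 3.23 CPM per kilobase for spleens, 3.74 for PC samples and 2.66 for cultures, at rank 8855, 8799 and 9202. The spleen mean rested on the library labelled replicate 4, at 7.78 CPM per kilobase, where the others were at 2.39, 1.17 and 1.57.

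From the highest to the lowest mean, the groups stood in the order NFKBIE-ko PC, NFKBIE-ko spleen, NFKBIE-ko in vitro, NFKBIE-wt PC, NFKBIE-wt spleen and NFKBIE-wt in vitro. The last 2 changed places without the pair of libraries (5.28 CPM for spleens and 9.73 CPM for cultures). Levels between compartments of 1 genotype were not part of the choice of the gene and were tested in 1 fit of all 22 samples, with 6 contrasts. Spleen and PC samples of a genotype came from the same group of recipients, and the fit treated them as independent. Between NFKBIE-ko compartments, Cd4 did not pass the test with all libraries in the fit. The log2 difference was -0.13 between spleen and PC (95% interval -0.95 to 0.69, padj 0.802), 0.39 between spleen and culture (-0.50 to 1.29, padj 0.506) and 0.52 between PC and culture (-0.37 to 1.42, padj 0.328). In these contrasts 20.2%, 13.5% and 20.8% of 13537 genes passed the test, where a gene had to have an adjusted p below 0.05 and a log2 difference beyond 1. Without the 2 NFKBIE-wt libraries that went against their labels, the difference between NFKBIE-ko PC and culture had padj 0.0277 (0.56, 95% interval 0.13 to 0.98), which was under the fold threshold.

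In NFKBIE-wt samples the outcome rested on the pair of libraries that went against their labels. With all libraries the log2 difference of Cd4 was -0.20 between spleen and PC (95% interval -1.05 to 0.66, padj 0.749), 0.27 between spleen and culture (-0.67 to 1.21, padj 0.884) and 0.46 between PC and culture (-0.48 to 1.41, padj 0.448). Here 12.8%, 0% and 13% of genes passed. Without the pair, Cd4 was lower in the NFKBIE-wt spleens than in the NFKBIE-wt PC by a log2 difference of -1.14 (95% interval -1.61 to -0.66, padj 0.000719), among 14.7% of genes that passed. The difference between spleen and culture then turned to -0.88 (-1.43 to -0.33, padj 0.0192, under the fold threshold), and that between PC and culture was 0.26 (-0.26 to 0.78, padj 0.414).

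The sizes of the NFKBIE-ko effect on Cd4 in the 3 compartments as labelled had differences near 0 with wide intervals. Its log2 fold change was greater by 0.06 in the spleen than in the PC (95% interval -1.12 to 1.25), by 0.12 in the spleen than in vitro (-1.17 to 1.41) and by 0.06 in the PC than in vitro (-1.23 to 1.35). Without the 2 libraries these differences were 1.01 (0.40 to 1.62), 1.31 (0.61 to 2.00) and 0.30 (-0.37 to 0.96). The NFKBIE-ko libraries in both sets of values were the same, and the NFKBIE-wt means of spleen (9.97 to 5.28 CPM) and culture (8.18 to 9.73 CPM) moved.

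Nearly all Cd4 reads were assigned to Cd4-201, the canonical protein-coding transcript of 3108 bases (ENSMUST00000024044, from 124841655 to 124865184). It held 98.7 ± 0.11% of the Cd4 counts in the NFKBIE-ko spleens and 99.4 ± 0.78% in the NFKBIE-wt spleens (SD, n = 4 each, two-sided exact permutation test p of 0.143). In the PC the shares were 98.6 ± 1.3% and 99.6 ± 0.47% (SD, n = 4 each, exact p of 0.229), and in vitro 98.1 ± 0.18% and 98.6 ± 0.69% (SD, n = 3 each, exact p of 0.4, where 0.1 is the smallest p possible). The share was not used to choose the gene, and with all libraries it did not differ beyond the spread between replicates. In the spleen this rested on NFKBIE-wt replicate 1, the lowest of its group at 98.35%. The other NFKBIE-wt spleens lay above all NFKBIE-ko spleens (98.58 to 98.8%). The remaining reads fell on 4 short or intron-retaining transcripts. Cd4-205, which retains an intron, had up to 90.5 counts in a NFKBIE-ko sample and up to 3.9 in a NFKBIE-wt sample, and Cd4-203 and Cd4-204 were at 0 in all NFKBIE-wt samples. Cd4 as a whole had 2099 to 4211 counts in NFKBIE-ko and 90 to 631 in NFKBIE-wt samples. The low counts of the minor transcripts in NFKBIE-wt are therefore limited by depth. Cd4-206 and Cd4-207, which start further upstream, were not analysed here.

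The 250 bases before the annotated start of Cd4-201 are shown, at chr6:124865185-124865434 of GRCm39, reverse strand. Cd4-206 and Cd4-207 start further upstream and are not in the deposited table, so the start used by these reads was not determined. The name promoter below stands for this window only. The capitals mark the single E-box (CANNTG), the motif of helix-loop-helix proteins such as those encoded by Tcf3 and Tcf12, 70 bases before the start.
Cd4 promoter: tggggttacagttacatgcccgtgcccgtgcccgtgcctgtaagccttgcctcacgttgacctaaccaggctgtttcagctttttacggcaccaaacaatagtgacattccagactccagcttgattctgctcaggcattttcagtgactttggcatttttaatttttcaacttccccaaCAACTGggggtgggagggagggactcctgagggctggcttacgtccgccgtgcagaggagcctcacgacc
On both strands, an E-box was present in 62.6% of 17010 windows of the same length and position. The window held no match to the NF-κB consensus (7.74% of windows), to the Runx motif TGTGGT (13.2%) or to TATAAA (10.0%). The Myb motif AACNG occurred 3 times, once overlapping the E-box, and was present in 73.8% of windows. These are matches of letters only.

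Genes of T cells were read in the same libraries to see which of them were present beside Cd4. Cd3e encodes a signalling chain of the CD3 complex. In the NFKBIE-ko cultures it had 0, 1 and 2 counts, whereas Cd4 had 2937, 2099 and 2511 counts in these libraries. Trbc1 and Trbc2, the constant regions of the T-cell receptor β chain, were at 0 counts in all 3 NFKBIE-ko cultures, which allows a level of up to 0.110 to 0.121 CPM (3 counts per library, counting error only). Of the 22 genes on the lists of the T-cell receptor complex and of other T-cell genes, 9 were at 0 in all 3 NFKBIE-ko cultures, among them Cd8a, Cd8b1, Cd28, Icos and Bcl11b. Cd4 in these cultures was thus measured in libraries where Cd3e, Trbc1 and Trbc2 were at or near 0. Of the 14 myeloid and dendritic cell genes, 3 to 4 per NFKBIE-ko culture were at 0, among them C1qa and Fcgr1, whereas Ly6c2 had 1018 to 1576 counts, Adgre1 499 to 765 and Itgam 77 to 173. NFKBIE-wt in vitro replicate 2 was of the same kind, with 1 count of Cd3e and 11 of the 22 genes at 0, and had 213 counts of Cd4.

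Cd3g and Trac were not absent from these cultures. Cd3g, the γ chain of CD3, had 640, 633 and 432 counts in the NFKBIE-ko cultures and 237, 897 and 262 in the NFKBIE-wt cultures. Trac, the constant region of the T-cell receptor α chain, had 113, 66 and 86 counts against 281, 116 and 1053. In NFKBIE-wt in vitro replicate 2, which lacked Trbc1, Trbc2 and Thy1, Cd3g reached its highest count of the series and Cd4 was low. Other genes known from T cells were also read in the NFKBIE-ko cultures, with 3012 to 3440 counts of Lck, 816 to 1133 of the adhesion receptor Cd2 and 306 to 451 of Cd6. Of the 22 genes, 11 were at 3 counts or fewer in all 3 NFKBIE-ko cultures. The summed level of the T-cell receptor complex there was 21.9 to 28.6 CPM, beside 21.1 to 31.5 CPM in the NFKBIE-ko PC and 45.5 to 74.7 CPM in the NFKBIE-ko spleens. Lck and Cd6 are also transcribed in CD5+ B cells.

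In the spleen, Cd3e had 87, 144, 110 and 94 counts in the NFKBIE-ko samples and 51, 39, 26 and 3 in the NFKBIE-wt samples (log2 fold change 1.83, padj 0.129). All NFKBIE-ko samples were above the NFKBIE-wt samples, but the difference did not pass the test. Cd3g had 301, 373, 457 and 322 counts against 195, 269, 246 and 434 (log2 fold change 0.33, padj 0.476), and Trac 449, 717, 578 and 673 against 951, 883, 664 and 187 (log2 fold change -0.19, padj 0.837). Per kilobase, Cd4 was at 12.2 to 19.4 times the level of Cd3e in the NFKBIE-ko spleens and at 1.10 to 2.34 times in the 3 NFKBIE-wt spleens with more than 3 counts of Cd3e.

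In the PC, Cd3e had 28, 62, 70 and 42 counts against 20, 6, 15 and 29, and rose in the NFKBIE-ko samples by 1.49 on the log2 scale (standard error 0.46, padj 0.0241), with overlap between the groups. Cd3g had 165, 155, 174 and 143 counts against 88, 71, 48 and 76, and rose by 1.13 (padj 0.00133). Trac had 180, 150, 185 and 162 counts against 326, 314, 305 and 367. It was lower in all 4 NFKBIE-ko samples by a log2 difference of -0.99 (padj 0.000216), just short of the fold threshold. The ratio of Cd4 to Cd3e per kilobase was 21.2 to 76.4 in the NFKBIE-ko PC and 4.05 to 31.2 in the NFKBIE-wt PC, so that the groups overlapped.

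**Figure D2:**
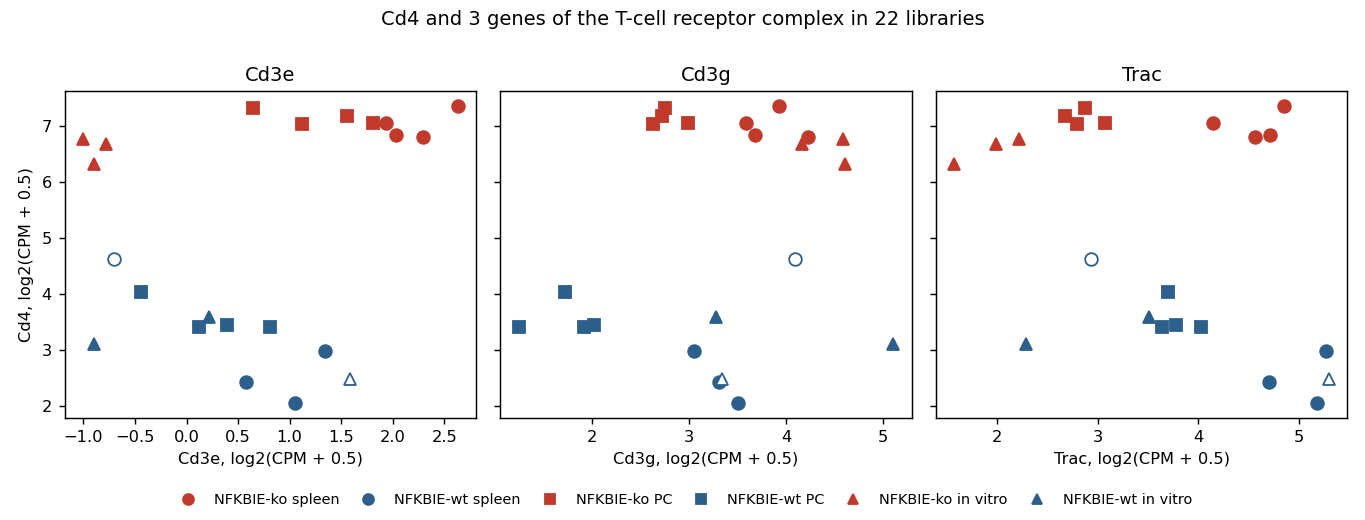
Cd4 against Cd3e, Cd3g and Trac, all as log2(CPM + 0.5), with 1 symbol per library in 3 panels; red is NFKBIE-ko, blue is NFKBIE-wt, the shape gives the compartment and open symbols are the 2 libraries that went against their labels. The NFKBIE-ko libraries form a band at high Cd4 that includes cultures with 0 to 2 counts of Cd3e. It runs from 5.68 to 23.9 CPM of Cd3g and from 2.49 to 28.3 CPM of Trac, and the NFKBIE-wt libraries reach lower and higher in Cd3g and higher in Trac.

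Counted over the list, 0 of the 7 genes of the T-cell receptor complex passed the test in the spleen, where 3.03% of all genes did, 1.43% higher and 1.6% lower in NFKBIE-ko (4 of 7 at an unadjusted p below 0.05 with the fold threshold, 3 with DESeq2). In the PC, 5 of 7 rose (Cd3d, Cd3e, Cd3g, Trbc1 and Trbc2), where 13.5% of all genes passed, 9.96% higher and 3.5% lower. In vitro, 0 of the 4 tested passed, where 0.0341% of all genes did (2 at an unadjusted p below 0.05 with the fold threshold, 1 with DESeq2). The share of all genes at an unadjusted p was not computed, and DESeq2 passed more genes than edgeR in spleen and culture. Nothing is read from the counts under these other rules, here or for the lists below. The median log2 fold change of the tested members was 1.36 for spleens, 1.25 for PC samples and -1.46 for cultures, beside -0.003, -0.008 and -0.021 over all genes. Without the spleen library labelled NFKBIE-wt replicate 4, Cd3e and Trbc2 rose in the spleen (2 of 7). Then 6.36% of 12471 genes passed, 378 higher and 415 lower in NFKBIE-ko. Without NFKBIE-wt in vitro replicate 3, 0 of 4 passed in vitro and the median was -0.86.

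Of the other T-cell genes, 2 of 14 tested rose in the spleen, among them Cd8a, a coreceptor chain of cytotoxic T cells (log2 fold change 2.91, padj 0.0431). In the PC, 6 of 13 tested rose, among them the costimulatory receptor Cd28 (2.13, padj 0.000182), Cd8a (1.87, padj 0.00581) and Lck (1.66, padj 1.35e-06). Zap70, a kinase that binds the CD3 chains, was lower in the PC by a log2 difference of -2.08 (padj 5.88e-05). None of the 6 tested in vitro passed (2 at an unadjusted p below 0.05 with the fold threshold, 1 with DESeq2). For comparison, 1.43% of all genes rose in the spleen and 9.96% in the PC, and 0.0341% passed in vitro. The summed level of the list was 221 to 311 CPM in the NFKBIE-ko spleens against 119 to 212 CPM, 391.7 to 465 CPM in the NFKBIE-ko PC against 251 to 325 CPM, and 170.1 to 184 CPM in the NFKBIE-ko cultures against 108 to 242 CPM. Without the spleen library labelled NFKBIE-wt replicate 4, 4 of 14 rose in the spleen, among them Cd8a, Cd8b1 and Thy1, and Zap70 was lower. Then 6.36% of all genes passed in the spleen. In the PC samples some T-cell genes were higher beside Cd4 and others, Zap70 and Trac, were lower. In NFKBIE-wt spleen replicates 1, 2 and 3, Zap70 had 473, 510 and 1006 counts, beside 51, 39 and 26 of Cd3e. Trac had 951, 883 and 664 counts there. Which cells held Zap70 and Trac was not tested. The part of T cells in the Cd4 level of spleen and PC was not tested.

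Of 5 genes of CD4+ helper and regulatory T cells, none rose in the spleen. Tnfrsf4, which encodes the costimulatory receptor OX40, was at 2.33 to 3.90 CPM in the NFKBIE-ko spleens and 1.23 to 2.00 CPM in the NFKBIE-wt spleens, without overlap (log2 fold change 1.00, padj 0.0832), and DESeq2 passed 2 genes of the list there. Foxp3, which defines regulatory T cells, had 11, 29, 17 and 27 counts in the NFKBIE-ko spleens and 3, 14, 27 and 3 in the NFKBIE-wt spleens. Cd40lg, the CD40 ligand of helper T cells, had 0 to 5 counts in every sample. Il2ra, the α chain of the IL-2 receptor, was lower in the NFKBIE-ko spleens by a log2 difference of -2.41 (padj 0.00667) and in the NFKBIE-ko PC by -2.36 (padj 1.45e-06). In vitro Il2ra had 47, 36 and 59 counts against 1025, 111 and 733, without overlap, and did not pass (log2 fold change -3.71, padj 0.440). Zbtb7b was the only member that rose, in the PC. Of this list 1 of 4 tested passed in the spleen, 2 of 3 in the PC and 0 of 3 in vitro (1 at an unadjusted p below 0.05 with the fold threshold, 1 with DESeq2). The shares of all genes that passed were 3.03%, 13.5% and 0.0341%.

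Since a subset of splenic dendritic cells carries CD4, genes of myeloid and dendritic cells were read as well. Of these, 1 of 12 tested rose in the spleen, Xcr1 of cross-presenting dendritic cells (log2 fold change 1.88, padj 0.0248). In the PC 6 of 11 rose, among them the macrophage genes Adgre1 (2.31, padj 0.000671) and Itgam (1.92, padj 0.000672). The count in the spleen was 4 of 13 without the spleen library labelled NFKBIE-wt replicate 4. Beside these counts, 1.43% of all genes rose in the spleen and 9.96% in the PC. Without that library 6.36% of 12471 genes passed in the spleen, 378 of them higher in NFKBIE-ko. The summed level of the list was 1461 to 2017 CPM in the NFKBIE-ko PC against 247 to 676 CPM, 87.8 to 169.9 CPM in the NFKBIE-ko spleens against 37.0 to 57.1 CPM, and 91.1 to 117 CPM in the NFKBIE-ko cultures against 64.1 to 77.1 CPM. In vitro 0 of 9 passed, where 0.0341% of all genes did (1 at an unadjusted p below 0.05 with the fold threshold, 0 with DESeq2). The Cd4 means of the NFKBIE-ko PC and spleens were 141 and 129 CPM beside these sums. Another dendritic cell gene of the list, Esam, had 24, 2, 14 and 5 counts in the NFKBIE-ko spleens and 9, 9, 5 and 2 in the NFKBIE-wt spleens. In the PC, Esam had 0 counts in every NFKBIE-ko sample and 5, 4, 5 and 3 in the NFKBIE-wt samples. The part of myeloid and dendritic cells in the Cd4 level of spleen and PC was not tested.

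The B-cell identity genes were high in every library, as the label of a B-cell leukemia implies. The sum over the 10 genes of the list was lower in every NFKBIE-ko library than in every NFKBIE-wt library of its compartment, at 6475 to 7814 against 9198 to 10031 CPM for spleens, 9112 to 9471 against 11081 to 11430.2 CPM for PC samples and 7732 to 8157 against 9023 to 11541 CPM for cultures. Most of this sum was Ighm, at 4956 to 5777 against 7495 to 7829 CPM for spleens, so the sum does not stand for the other genes. With all libraries, the median log2 fold change of the 10 genes was -0.23 for spleens, 0.38 for PC samples and 0.10 for cultures. Cd79b, a signalling chain of the B-cell receptor, was lower in the NFKBIE-ko spleens once the library labelled replicate 4 was left out (-1.10, padj 0.00314). Of the list, 0 of 10 passed the test in the spleen and in vitro (0 and 1 at an unadjusted p below 0.05 with the fold threshold, 0 and 1 with DESeq2), and Cd22, an inhibitory coreceptor of the B-cell receptor, rose in the PC (log2 fold change 1.55, padj 0.000165). Over all genes, 3.03% passed in the spleen and 0.0341% in vitro, and 9.96% rose in the PC.

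Among 19 regulators of Cd4 transcription, 18 were tested in the spleen and 2 rose: Runx3, which silences Cd4 in cytotoxic T cells (log2 fold change 1.16, padj 0.0204), and Tcf7, which encodes TCF-1 (1.12, padj 0.0164). Runx3 and Tox passed, and Tcf7 did not, without the spleen library labelled NFKBIE-wt replicate 4. In the PC, 1 of 17 rose, Zbtb7b, at 35.3, 38.7, 42.5 and 34.1 CPM in the NFKBIE-ko samples and 16.0, 13.1, 12.8 and 12.6 CPM in the NFKBIE-wt samples (log2 fold change 1.46, padj 4.59e-06). Zbtb7b had no such difference elsewhere, with log2 fold changes of 0.34 in the spleen (padj 0.467) and 0.04 in vitro (padj 0.945). In vitro, where Cd4 was at 79.1 to 108 CPM, 0 of 15 regulators passed (0 at an unadjusted p below 0.05 with the fold threshold, 0 with DESeq2). The share of all genes that rose was 1.43% in the spleen and 9.96% in the PC, and 0.0341% passed in vitro. Runx3 did not pass in the PC (log2 fold change 0.81, padj 0.000137, under the fold threshold) or in vitro (0.74, padj 0.330), but lay above every NFKBIE-wt library in all 3 compartments. Its levels were 49.0 to 74.0 against 18.8 to 33.6 CPM for spleens, 36.3 to 48.1 against 21.7 to 27.1 CPM for PC samples and 42.7 to 50.6 against 23.2 to 29.4 CPM for cultures. Every NFKBIE-ko sample was likewise above every NFKBIE-wt sample for 8.71%, 21.8% and 10.1% of all genes in spleen, PC and culture. Among the tested regulators this held for 3, 3 and 2 genes, and the reverse held for 1, 3 and 3. No regulator passed in all 3 compartments, and nothing is read from this, since 4 of 11722 genes passed in vitro.

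The binding partners of CD4 rose in the PC. Of 5 tested, 4 passed there: Lck and the MHC class II genes H2-Aa, H2-Ab1 and H2-Eb1, which encode the ligand of CD4. H2-Aa was at 511, 738, 480.4 and 544 CPM in the NFKBIE-ko PC and at 214, 199, 192 and 250.2 CPM in the NFKBIE-wt PC (log2 fold change 1.40, padj 3.50e-05). In vitro H2-Aa was at 1316, 1324 and 1250.2 CPM against 394, 982 and 237 CPM, without overlap, and did not pass (log2 fold change 1.27, padj 0.517). In vitro 0 of 5 partners passed (3 at an unadjusted p below 0.05 with the fold threshold, 0 with DESeq2). Without the library labelled replicate 3 it was also 0 of 5, where 0.0759% of all genes passed. Once NFKBIE-wt in vitro replicate 2 was left out, 4 of 5 passed, and the count over all genes was then also at its highest. In the spleen 0 of 5 passed (0 at an unadjusted p below 0.05 with the fold threshold, 0 with DESeq2). The shares of all genes were 9.96% rising in the PC, 0.0341% passing in vitro and 3.03% passing in the spleen. Il16, a cytokine that binds CD4, was lower in the NFKBIE-ko PC by a log2 difference of -0.35 (padj 0.00789), under the fold threshold.

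Genes next to Cd4 were compared because they lie in the same stretch of chromosome 6. Of 24 annotated genes within 100 kb, 14 are in the table. In the PC, 4 of 13 tested rose, where 9.96% of all genes did. Gpr162, an orphan receptor gene whose start lies 24.1 kb downstream of the Cd4 start, was at 10.1, 11.3, 8.99 and 9.94 CPM in the NFKBIE-ko PC and at 0.89, 1.23, 0.94 and 1.12 CPM in the NFKBIE-wt PC (log2 fold change 3.26, padj 4.57e-07). Gnb3, a G-protein β subunit, was at 147, 192, 159 and 174 CPM against 21.5, 24.5, 19.1 and 25.3 CPM (log2 fold change 2.89, padj 1.20e-07). P3h3, a collagen prolyl hydroxylase, was near the detection limit at 0.83 to 1.20 against 0.12 to 0.32 CPM (log2 fold change 2.06, padj 0.000931). Ptms, which encodes parathymosin and starts 29.7 kb upstream, rose by 1.32 on the log2 scale (padj 7.30e-07). The other 9 did not pass, and Tpi1, a glycolytic enzyme, came nearest with a log2 fold change of 0.88. Ptms overlaps an annotated transcript of the other strand, and whether the libraries kept the strand is not given in the sources used here.

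Lag3, a relative of CD4 that also binds MHC class II, starts 23.5 kb upstream of Cd4. It was the only 1 of 11 neighbours to pass in the spleen, at 5.81, 4.47, 9.90 and 5.43 CPM in the NFKBIE-ko samples and 2.999, 2.43, 1.76 and 1.52 CPM in the NFKBIE-wt samples (log2 fold change 1.53, padj 0.0326). Over all genes, 3.03% passed in the spleen. In the PC Lag3 was at 14.6 to 17.4 CPM against 10.9 to 16.5 CPM (log2 fold change 0.23, padj 0.184). Without the spleen library labelled NFKBIE-wt replicate 4, Gpr162 (2.32, padj 0.00629), Gnb3 (2.28, padj 0.0161) and Ptms (1.26, padj 0.00395) rose in the spleen as well, which makes 4 of 11. The share of all 12471 genes that passed was then 6.36%, with 378 genes higher in NFKBIE-ko.

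In vitro, 0 of 11 neighbours passed, where 0.0341% of all genes did (0 at an unadjusted p below 0.05 with the fold threshold, 0 with DESeq2). The NFKBIE-wt cultures were spread widely. Gpr162 was at 10.51, 11.5 and 7.41 CPM in the NFKBIE-ko cultures and at 1.51, 8.16 and 0.26 CPM in the NFKBIE-wt cultures. Gnb3 was at 19.4, 32.2 and 24.3 CPM against 6.21, 25.0 and 1.88 CPM. In NFKBIE-wt in vitro replicate 2 both genes reached the range of the NFKBIE-ko cultures, whereas Cd4 in the same library was at 8.04 CPM, below all NFKBIE-ko cultures.

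**Figure D3:**
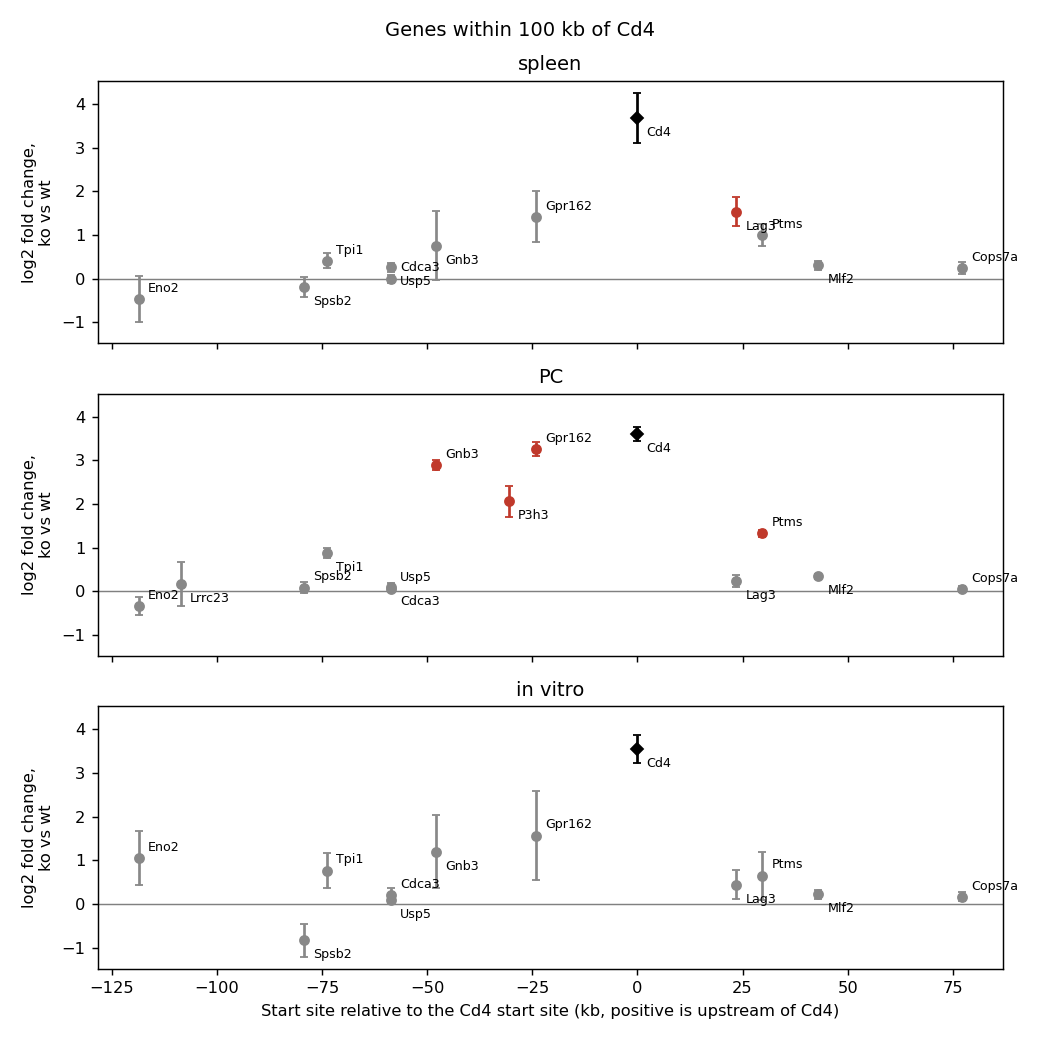
Log2 fold change (NFKBIE-ko against NFKBIE-wt) with its standard error for Cd4 (black diamond) and the tested genes within 100 kb, by the distance of their start from that of Cd4 in kb; red points passed the test and grey points did not. Gpr162, Gnb3, P3h3 and Ptms passed in the PC, Lag3 in the spleen and none in vitro.

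The genes whose pattern over the 22 samples was most like that of Cd4 were Hgfac, Pou2af3, Sult5a1, Myo3b, Cmtr1, Ptk2, Tmed6, Ebf3, Gm49909 and Cap1, with Pearson correlations of log2(CPM + 0.5) from 0.945 to 0.879 among 10466 genes. The samples of these correlations share their genotype groups, and a gene that differs between NFKBIE-ko and NFKBIE-wt will score high in them. By Spearman correlation, 5 of the 10 stayed among the 10 most alike. The genes with the most opposite pattern were Faah (-0.942), Alkbh4 (-0.928), Rchy1 (-0.906), Tfdp2 (-0.897) and Chic2 (-0.894).

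None of these is a T-cell receptor gene. Myo3b, an unconventional myosin, was at 25.3, 21.98 and 20.8 CPM in the NFKBIE-ko cultures and 4.97, 4.76 and 3.24 CPM in the NFKBIE-wt cultures. Tmed6, of a family of proteins that carry cargo out of the endoplasmic reticulum, was at 10.0, 8.18 and 9.96 CPM against 0.58, 0.11 and 1.69 CPM. Hgfac, the activator of hepatocyte growth factor, was at 4.85, 3.68, 4.75 and 5.08 CPM in the NFKBIE-ko spleens and 0.24, 0.16, 0.11 and 0.15 CPM in the NFKBIE-wt spleens. Pou2af3, a coactivator of POU factors, was at 61.3 to 83.1 CPM against 1.13 to 7.54 CPM in the same spleens. In each of these comparisons all NFKBIE-ko libraries lay above all NFKBIE-wt libraries, as did 8.71% of all genes in the spleen and 10.1% in vitro. The genes were chosen by their likeness to Cd4 in these same libraries, so nothing is read from this. Cap1 and Cmtr1 moved over a much narrower range, with Cap1 at 230.4 to 299.6 CPM in NFKBIE-ko and 172 to 228 CPM in NFKBIE-wt libraries.

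**Figure D4:**
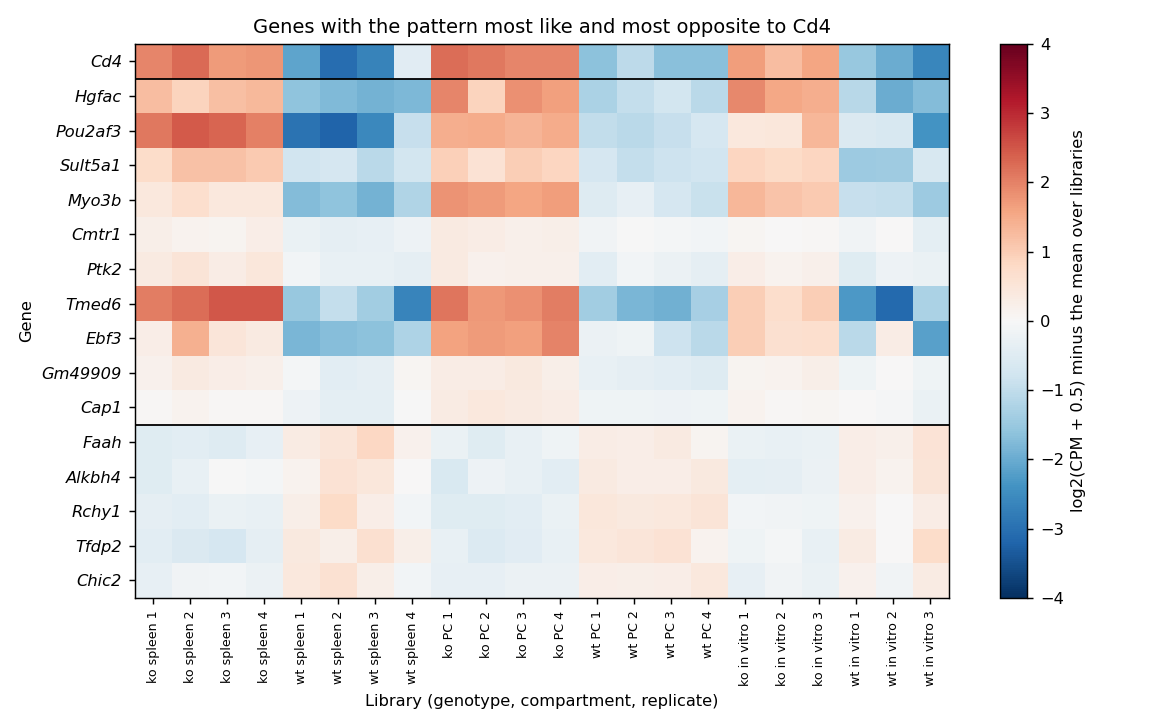
Log2(CPM + 0.5) minus its mean over the 22 libraries for Cd4 (top row), the 10 genes most like it and the 5 most opposite to it; columns are libraries in the order of their groups. Cd4 and the 10 genes are higher in the NFKBIE-ko columns and the 5 opposite genes are lower, with the NFKBIE-wt spleen 4 column nearest to the mean for Cd4.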

How the data were processed

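RNA of 22 samples had been sequenced in pairs by the authors, who estimated transcript abundance with Salmon 1.8 on GRCm39 and deposited estimated counts (expected counts) without normalization. Salmon divides reads between transcripts, and 69.5% of values were not whole. Transcripts above 0 in fewer than 5 samples had been left out. The 345 transcripts without a match in GENCODE M39 held 0.619% of the counts and entered library sizes only. Counts were rounded and summed per gene.

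Genotypes were compared per compartment with edgeR 4.0.16 (R 4.3.3; filterByExpr, TMM, robust quasi-likelihood fits), and compartments in 1 fit of all samples. To pass, a gene needed a log2 fold change beyond 1 together with an adjusted p (Benjamini-Hochberg) under 0.05. Counts were simulated with 200 genes changed by 2 on the log2 scale and a dispersion of 0.1 for every gene. Of the 200 changed genes, 193 were recovered for the cultures (11 false calls among 12635 genes). The simulation held no library that went against its label, so it does not give the power in the real cultures. Levels between genes were divided by transcript length. The total per sample was 24036763 to 26581304.

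The gene, lists, tests and rule for named genes were chosen with earlier results of these data known. Named were Cd4, Nfkbie, the T-cell receptor genes, neighbours within 100 kb, up to 5 members per list and compartment that passed, and the 10 most like and 5 most opposite genes. Further genes were named after their values were seen (Foxp3, Cd40lg, Tnfrsf4, Cd79b, Fcgr1, Il16, Cd2, Ly6c2 and other members of the marker lists given by their counts). Alternatives were other size factors, no or a stricter filter, DESeq2 1.42.0, the fit of all samples, a replicate block, the main transcript, other windows and each library left out. Leaving out the pair of libraries that went against their labels, and keeping NFKBIE-wt in vitro replicate 2 alone, were chosen after seeing the data. Purified samples were not analysed here. One member of the list of other T-cell genes is counted but not reported by name here.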

Additional observations from a re-analysis of the deposited data

Results flagged for a closer look

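Among 4 samples of a group, the highest or lowest stood far from the others (Dixon's criterion) for Cd4 in NFKBIE-wt PC replicate 2 at 15.8 CPM. The same held for Nfkbie in NFKBIE-ko spleen replicate 2, the lowest at 54.4 CPM. Of the neighbours of Cd4, it held for Lrrc23 in NFKBIE-wt spleen replicate 2 at 1.05 CPM, P3h3 in NFKBIE-ko PC replicate 1, the lowest at 0.83 CPM, and Pianp, with a single count in NFKBIE-wt spleen replicate 1 (0.0400 CPM) and in NFKBIE-wt PC replicate 1 (0.0405 CPM). Cd3d in NFKBIE-ko PC replicate 1 was the lowest of its group at 1.74 CPM. The library labelled NFKBIE-wt spleen replicate 4 was the highest of its group for Nfkbie at 122 CPM, for Gnb3 at 11.01 CPM and for Eno2 at 3.09 CPM. Chance alone sets about 1 in 20 groups apart in this way.

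The difference of the NFKBIE-ko effect between compartments passed the test, by an adjusted p below 0.05 in edgeR's quasi-likelihood fit of all samples, for 3 genes of the T-cell receptor complex and for Lag3. For Cd3d the log2 fold change was greater by 3.03 in the PC than in vitro (adjusted p of 0.0356, and 0.0252 without the 2 libraries that went against their labels). For Cd3e and Trbc2 the same difference had adjusted p of 0.0259 and 0.0295 from edgeR, and no size is given since the NFKBIE-ko cultures held 0 to 2 counts of Cd3e and 0 of Trbc2. For Lag3 the effect was greater by 1.29 in the spleen than in the PC (adjusted p of 0.0417 from edgeR, and 0.0342 without the 2 libraries). In vitro replicate 3 of NFKBIE-wt, which held T-cell genes, takes part in the first 3 of these differences. Without the 2 libraries and with the fold threshold added, the effect differed between PC and culture for 3.49% of all genes. Between spleen and PC it did so for 3.5%. The shares with all libraries are not given, so nothing is read from the number of genes named.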

How the results depend on the processing

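Over all alternatives the log2 fold change of Cd4 between NFKBIE-ko and NFKBIE-wt stayed between 3.40 and 4.60 in the spleen, 3.53 and 3.78 in the PC and 3.30 and 3.87 in vitro. With each library left out in turn it ranged from 3.40 to 4.60 in the spleen, the highest without NFKBIE-wt spleen replicate 4. The difference of the effect ranged from -0.24 to 0.99 between spleen and PC and from -0.20 to 1.05 between spleen and culture, again highest without that library, and was 1.01 and 1.31 without the 2 libraries that went against their labels. In NFKBIE-wt, the difference between spleen and PC ranged from -1.12 to 0.07 (0.074 and 0.03 without NFKBIE-wt spleen replicate 2 or 3, which turned its direction, and -1.14 without the 2 libraries) and that between spleen and culture from -0.66 to 0.60 (-0.88 without both, which turned its direction). The share of the main transcript in the spleen ranged from -1.08 to -0.53 percentage points (NFKBIE-ko minus NFKBIE-wt). The difference was largest in size without NFKBIE-wt spleen replicate 1, when the groups did not overlap.

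Counts of genes that passed depended on single libraries. They ranged from 116 to 793 in the spleen (370 with all; 793 without NFKBIE-wt spleen replicate 4, 211 and 159 without NFKBIE-wt replicates 1 and 3, and 116, 124 and 135 without NFKBIE-ko replicates 1, 3 and 4). In vitro they ranged from 0 to 391 (4 with all; 391 without NFKBIE-wt in vitro replicate 2, 9 without the library labelled replicate 3 and 0 without any other), and between spleen and culture in NFKBIE-wt from 0 to 502 (0 with all, 502 without NFKBIE-wt in vitro replicate 3, 285 without NFKBIE-wt spleen replicate 4). In the spleen the lists ranged from 0 to 2 for the T-cell receptor complex, 0 to 5 for other T-cell genes, 0 to 4 for myeloid genes, 0 to 1 for B-cell genes, 0 to 2 for regulators and 0 to 4 for neighbours. The neighbours, and the myeloid genes, fell to 0 without any spleen library other than NFKBIE-ko replicate 2 and NFKBIE-wt replicate 4, and the regulators to 0 without NFKBIE-ko replicate 1 or 4. In the PC the T-cell receptor complex ranged from 3 to 5 (3 without NFKBIE-wt replicate 3 or NFKBIE-ko replicate 2 or 3) and regulators from 1 to 2. In vitro the ranges were 0 to 1 for the T-cell receptor complex, helper genes, myeloid genes and neighbours, and 0 to 4 for other T-cell genes and binding partners, each highest without NFKBIE-wt in vitro replicate 2.

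DESeq2 passed 608 genes in the spleen, with 3 of the T-cell receptor complex, 6 other T-cell genes, 2 helper and 2 myeloid genes. In vitro it passed 139, with 1 each of the T-cell receptor complex, other T-cell, helper and B-cell genes, and between spleen and culture in NFKBIE-wt 20. The fit of all 22 samples passed 661 in the spleen, with 1 of the T-cell receptor complex, 4 other T-cell, 2 helper and 2 myeloid genes, and 189 in vitro, with 1, 3 and 1 of the first 3 lists. In the PC it passed 2 of the T-cell receptor complex, 2 other T-cell and 3 myeloid genes. Without a filter, 2 regulators passed in the PC. Without the 2 libraries, 1740 genes passed between spleen and culture in NFKBIE-wt, and 165 in vitro with NFKBIE-wt in vitro replicate 2 as the only NFKBIE-wt culture, which is assumed to vary like the other groups. By Spearman correlation 5 of the 10 most alike genes stayed.

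Spleen and PC samples came from the same groups of recipients, but only a replicate number could link samples to each other. Residuals of same-numbered samples had correlations from -0.32 to 0.23. With the replicate block 88 genes passed in the spleen and 0 in vitro, with 0 other T-cell, myeloid, regulator and neighbour genes in the spleen and 3 of the T-cell receptor complex in the PC. The log2 fold change of Cd4 under the block was 4.08, 3.62 and 3.60 in spleen, PC and culture. The cause of these differences was not tested. Genes at a few counts, such as Cd3e in culture, are limited by depth.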
